A study of Mus musculus with 10 samples.

Results

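Ssbp2, Prdm16 and Mbd2 are the transcription regulators described here, in embryonic mouse forebrain that lacks the long non-coding RNA Evf2. They were chosen from the authors' deposited table of probe sets that differ between mutant and wildtype tissue: every probe set whose symbol there is Ssbp2, Prdm16 or Mbd2 was taken. This gave 3 probe sets, 1 per gene, of 96 in that table and of 45037 non-control probe sets on the array. RNA was measured in 5 mutant pools (Evf2TS/TS, labelled as lacking Evf2; 2 female and 3 male) and 5 wildtype pools (Evf2+/+; 3 female and 2 male). Each pool held 4 medial ganglionic eminences (MGE) from 2 embryos at E13.5, on a mixed background of 129Sv, Bl6 and Fvbn in both genotypes. The pools are separate samples, and the values measure the spread between pools, not between single embryos.

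The MGE is the ventral forebrain region that produces many cortical interneurons. Its progenitors are radial glia, and its neurons are specified in part by LIM homeodomain factors, which act in complexes with LDB proteins. Single-stranded DNA-binding proteins such as Ssbp2 bind LDB1 and protect it from degradation. Prdm16 is a zinc finger protein of the PRDM family, expressed in radial glia and also known as a switch gene of brown fat. Mbd2 binds methylated CpG and recruits the NuRD complex, which remodels nucleosomes and removes acetyl groups from histones. In the authors' deposited table all 3 carry the annotations nucleus and DNA binding. The second of these is on 7 of the 96 listed probe sets, and the other 4 are those of Dlx6, Eme2, Gm3579 and Hjurp.

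The targeted RNA checked the labels. Evf2, which RefSeq lists as Dlx6os1, read 9.47 to 58.1 signal units in mutant pools and 453 to 901 in wildtype pools. Mutant replicate 1, at 58.1, lay above 50 signal units, the mark used below for a probe set that is present, though below every wildtype pool; the remaining mutant pools read 9.47 to 16.5. On each array 38.9% to 40.4% of probe sets lay above 50 signal units. Mutant replicate 5 was far from the rest on the first component of a principal component analysis, which held 19.4% of the variance: it scored 61.7, the remaining mutant pools 0.197 to 2.34 and the wildtype pools -39.5 to -3.12. Wildtype replicate 3 lay apart at the other end, at -39.5, with the remaining wildtype pools at -9.53 to -3.12. In mutant replicate 5, 298 probe sets lay below all other arrays by over 2-fold after 16 was added to each signal. This count was 16 in wildtype replicate 3 and 1 to 4 in each of the rest. The 3′ to 5′ signal ratio for actin in mutant replicate 5 was 1.41, against 1.257 to 1.381 in the other 9 pools. Of the mutant pools, replicate 4 came closest to wildtype at 77 of the 96 listed probe sets.

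Because the 3 genes were picked from the authors' list for this contrast, their differences between genotypes are a description, and no p-value of them is read as a finding. Levels are linear signals of the deposited value table, and a level of 50 signal units served as a fixed mark for a probe set that is present. Log2 differences were taken on log2(signal + 16), with sex as a term in the fit.

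Ssbp2, the LDB1 partner, lay above the mark in every mutant pool and below it in every wildtype pool. The probe set 1429951_at read 143, 194, 245, 199.6 and 89.9 signal units in mutant replicates 1 to 5. In wildtype replicates 1 to 5 it read 5.57, 7.69, 16.5, 0.345 and 3.42. The groups were 73.4 signal units apart at their nearest pools, mutant replicate 5 and wildtype replicate 3. The mean was 174 ± 59.4 in mutant and 6.71 ± 6.13 in wildtype pools (SD, n = 5 each), a log2 difference of 3.09 ± 0.24 (SE). In bulk tissue such as this, more cells of a type and more RNA per cell cannot be told apart.

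Prdm16, the radial glia regulator, showed the reverse arrangement. The probe set 1429308_at read 33.2, 1.63, 17.2, 47.4 and 8.46 signal units in mutant replicates 1 to 5, all below the mark. It read 80.4, 80.3, 82.2, 98.6 and 88.8 in wildtype replicates 1 to 5, all above it. The nearest pools, mutant replicate 4 and wildtype replicate 2, were 32.9 signal units apart. Means were 21.6 ± 18.6 in mutant and 86.1 ± 7.82 in wildtype pools (SD, n = 5 each), and the log2 difference was -1.64 ± 0.29 (SE). The SD between pools was the larger in the mutant, although every mutant signal lay below the mark.

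Mbd2, the methyl-CpG reader, was dim in every pool, and none of the 10 reached the mark. The probe set 1441388_at read 12.3, 36.2, 33.9, 27.9 and 41.7 signal units in mutant replicates 1 to 5. In wildtype replicates 1 to 5 it read 7.48, 5.35, 3.04, 5.05 and 10.6. The groups did not overlap, but mutant replicate 1 and wildtype replicate 5 were only 1.69 signal units apart. The mean was 30.4 ± 11.3 in mutant and 6.31 ± 2.88 in wildtype pools (SD, n = 5 each), a log2 difference of 0.97 ± 0.17 (SE).

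**Figure D1:**
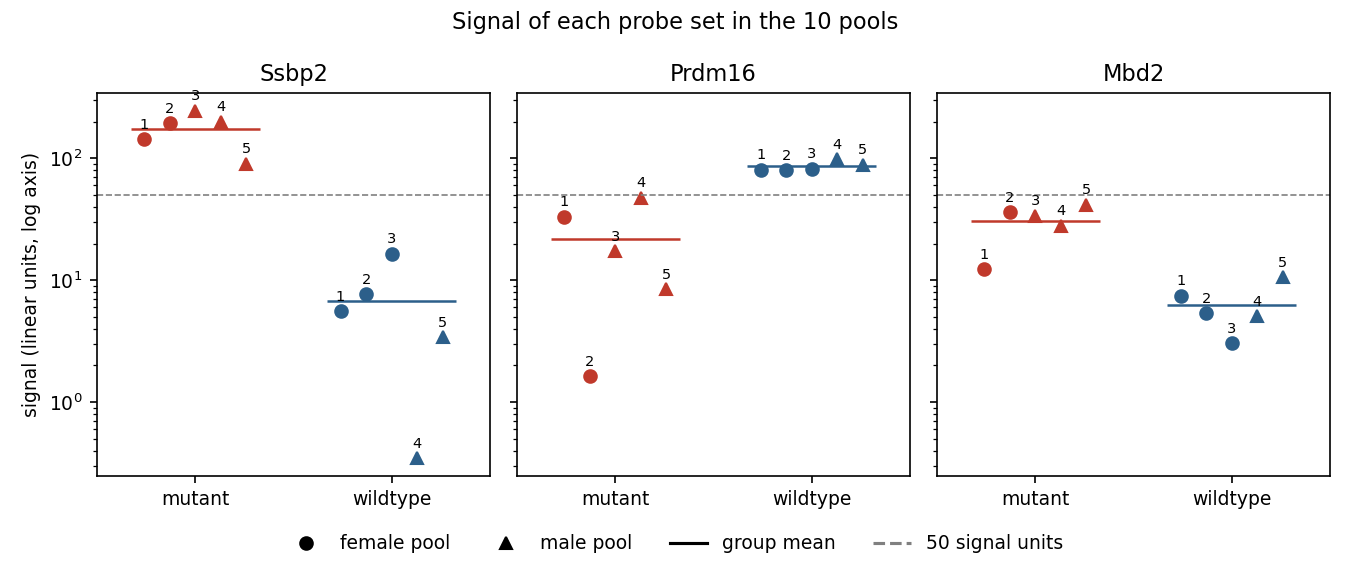
Signal of the Ssbp2, Prdm16 and Mbd2 probe sets (vertical axis, linear signal units on a log axis) in 5 mutant and 5 wildtype pools, numbered by replicate; bars are group means, circles female pools and triangles male pools. Ssbp2 lies above the dashed line at 50 signal units in mutant pools only, Prdm16 in wildtype pools only, and Mbd2 in no pool.

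Few probe sets on the array change sides of the mark as Ssbp2 and Prdm16 do. Of 45037 probe sets, 23 (0.0511%) lay above 50 signal units in all mutant pools and in no wildtype pool, and 7 of these are in the authors' table. The opposite arrangement was seen at 25 (0.0555%), of which 12 are in the table. The table holds 96 probe sets, and selection on this contrast favours both arrangements, so these shares only describe Ssbp2 and Prdm16. Mbd2 belonged with the 54.8% of probe sets that reached the mark in no pool. Groups did not overlap for all 3 members, beside 3.07% of all probe sets, and limma called all 3, beside 0.535%; selection on this contrast nearly fixes both counts. The Prdm16 and Mbd2 calls were each lost on leaving out mutant replicate 2, 3 or 5 or any 1 wildtype pool, at adjusted p of 0.0668 to 0.119 for Prdm16 and 0.0507 to 0.124 for Mbd2. Ssbp2 was called without each pool in turn.

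The size of each difference rested on the pseudocount, since each gene was dim in at least 1 genotype. Ssbp2 differed by 5.07 ± 0.55 at pseudocount 1, 3.09 ± 0.24 at 16 and 1.73 ± 0.17 at 64 (log2 difference ± SE). Prdm16 differed by -2.67 ± 0.70, -1.64 ± 0.29 and -0.86 ± 0.13 at the same pseudocounts. Mbd2 differed by 1.98 ± 0.34, 0.97 ± 0.17 and 0.40 ± 0.08. The direction of each gene was the same at all 3, which groups without overlap nearly ensure. The sizes cannot be read as fold changes of the transcript. In the authors' deposited table the absolute fold changes were 16.02 for Ssbp2 (intensities of 253 in mutant and 14.8 in wildtype), 4.84 for Prdm16 (38.1 and 175) and 2.49 for Mbd2 (42.4 and 16.8). These intensities differ from the signals above, and how they were summarized is not given. The mark of 50 signal units was not applied to them. That table admitted folds of at least 2, and its lowest was 2.01, so Mbd2 lay nearest to the limit among the 3. Probe sets just outside the limit carry no gene name here.

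**Figure D2:**
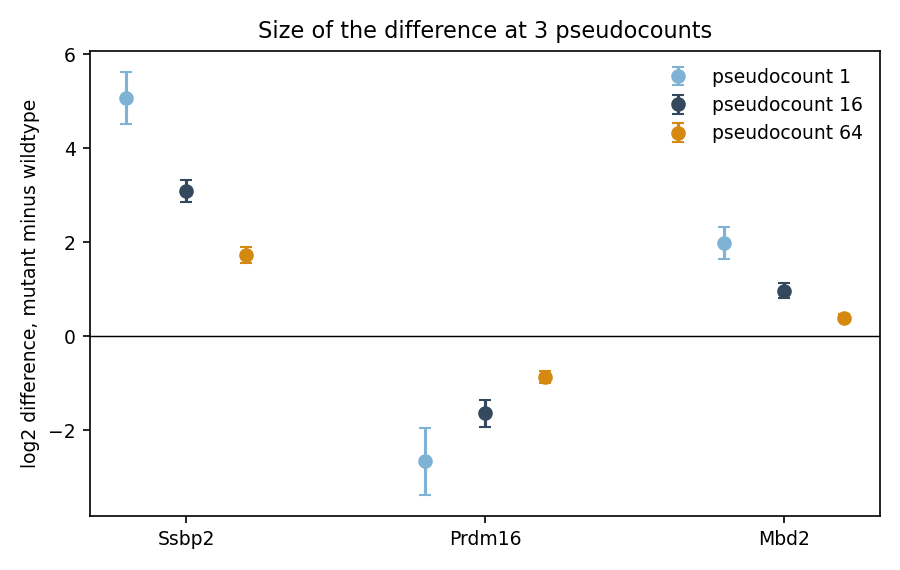
Log2 difference, mutant minus wildtype, of each gene (vertical axis; bars are SE of the fit to 10 pools) at pseudocounts 1, 16 and 64. Ssbp2 and Mbd2 lie above 0 and Prdm16 below 0 at all 3, and every difference shrinks as the pseudocount grows.

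The 3 genes differed in which mutant pool lay nearest to wildtype. A pool's position was measured in log2 units from the mean of the remaining mutant pools (0) towards that of the wildtype pools (1). Prdm16 was nearest to wildtype in mutant replicate 4, at 0.623. This is also the pool nearest to wildtype over the listed probe sets as a whole, with a median position of 0.392 against -0.109 to -0.0798 in the remaining ones. Mbd2 lay nearest to wildtype in mutant replicate 1, at 0.704, with mutant replicate 4 at 0.047. Mutant signals of Prdm16 and Mbd2 all lay below the mark, so their positions rank signals not shown to be above background. Ssbp2 lay nearest in mutant replicate 5, at 0.301, and mutant replicate 4 was at -0.103. Mutant replicate 1 was the pool with the highest mutant Evf2 signal, and mutant replicate 5 the pool with the highest score on the first component; their part in these values was not tested.

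Leaving out each pool in turn changed no direction, which the lack of overlap between genotypes nearly fixed in advance. The Ssbp2 difference ran from 2.95 without mutant replicate 3 to 3.25 without mutant replicate 5. That of Prdm16 ran from -1.90 without mutant replicate 1 to -1.34 without mutant replicate 2, and that of Mbd2 from 0.83 without mutant replicate 2 to 1.17 without mutant replicate 1. With mutant replicates 4 and 5 both left out, the differences were 3.21 for Ssbp2, -1.72 for Prdm16 and 0.94 for Mbd2. Without wildtype replicate 3 they were 3.20, -1.63 and 0.95. For each gene the lowest and highest values came from leaving out a mutant pool.

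**Figure D3:**
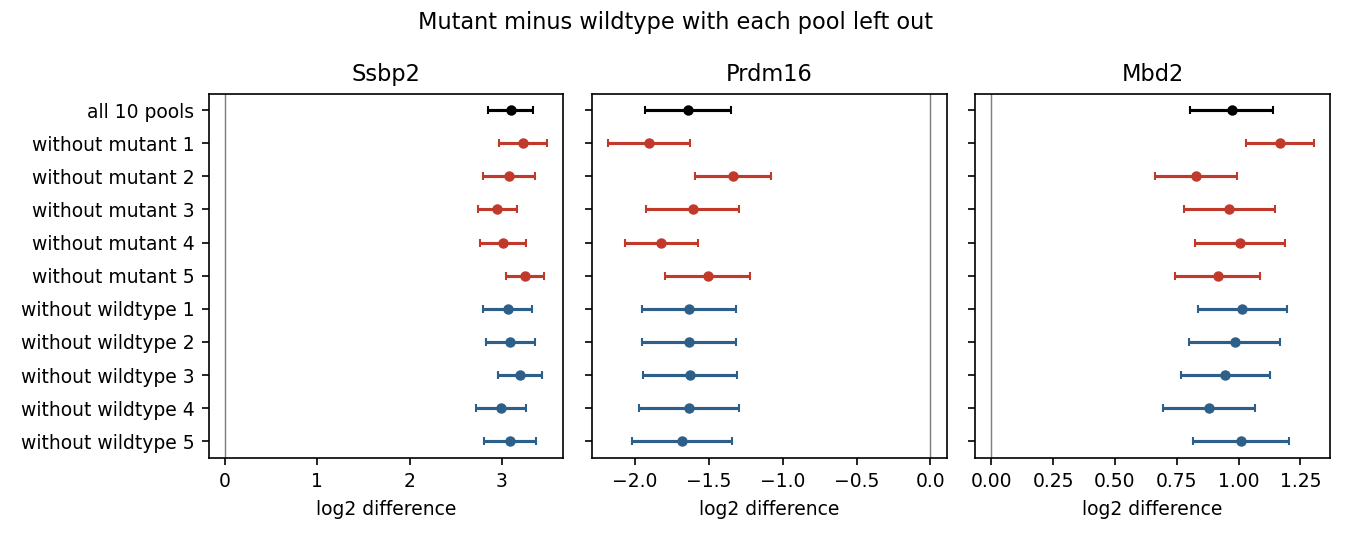
Log2 difference, mutant minus wildtype (horizontal axis, own scale in each panel; bars are SE), from all 10 pools (top) and with each mutant pool and then each wildtype pool left out. Ssbp2 stays between 2.95 and 3.25, Prdm16 between -1.90 and -1.34, and Mbd2 between 0.83 and 1.17.

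Taken over all 10 pools, the spread around the fit at pseudocount 16 was larger for all 3 genes than for most probe sets. The residual SD around the genotype and sex fit was 0.45 for Ssbp2, 0.55 for Prdm16 and 0.29 for Mbd2 (log2), against a median of 0.21 over all probe sets. A smaller SD was found at 96.6% of probe sets for Ssbp2, 99.1% for Prdm16 and 75.8% for Mbd2. The probe sets were not matched for signal, and each of the 3 genes was dim in at least 1 genotype. At pseudocount 64 the residual SDs were 0.30, 0.23 and 0.13 in the same order, and these were not set beside all probe sets. For Prdm16 the deviations came from mutant pools, from -0.79 to 0.80, while those of wildtype pools lay between -0.11 and 0.05.

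Deviations of Prdm16 and Mbd2 were negatively related. Across the 10 pools Pearson's r was -0.82 and Spearman's rho -0.71, with genotype and sex removed. It was -0.85 without mutant replicates 2 and 4, the pools where Prdm16 deviated most, and -0.63 without mutant replicates 1 and 2, where Mbd2 did. Mutant replicate 1 had a high Prdm16 and a low Mbd2 deviation (0.69 and -0.51), and mutant replicate 2 the reverse (-0.79 and 0.37). Ssbp2 deviations had r of 0.19 with Prdm16 and -0.01 with Mbd2. The negative relation rests mostly on mutant pools, where both probe sets lay below the mark in every pool, so it relates signals not shown to be above background. With other singly named listed genes the r of Mbd2 reached -0.92. The coefficients between members are descriptions over pools measured on the same arrays, and no p is given.

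**Figure D4:**
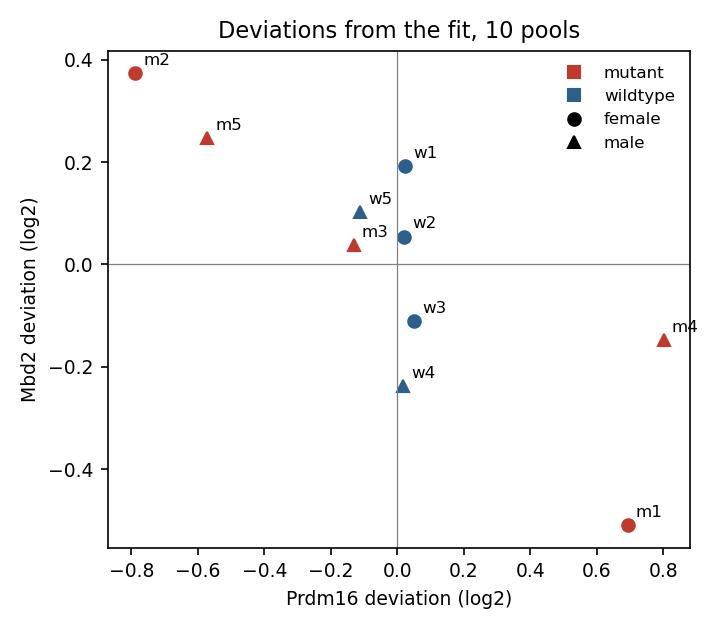
Deviation of Mbd2 (vertical axis) against that of Prdm16 (horizontal axis) from the genotype and sex fit, in log2 units, in 5 mutant (m) and 5 wildtype (w) pools numbered by replicate. Mutant replicate 1 lies at 0.69 and -0.51 and mutant replicate 2 at -0.79 and 0.37, while wildtype pools lie close to 0 for Prdm16.

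Sex was not used to choose the genes, and no difference between male and female pools was called at any of the 3, beside 0.0266% of all probe sets. The log2 difference, male minus female, was -0.27 for Ssbp2 (95% interval -0.79 to 0.26), 0.26 for Prdm16 (-0.38 to 0.89) and 0.27 for Mbd2 (-0.10 to 0.64). Each had a limma adjusted p of 0.977, and 5 male and 5 female pools entered the test. These intervals leave room for differences in either direction.

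The genotype difference was also set side by side in the sexes. Ssbp2 differed by 3.35 ± 0.34 in males and 2.84 ± 0.34 in females, Prdm16 by -1.56 ± 0.43 and -1.72 ± 0.43, and Mbd2 by 1.08 ± 0.24 and 0.86 ± 0.24 (log2, mutant minus wildtype ± SE). The difference of these effects, males minus females, was 0.51 for Ssbp2 (95% interval -0.56 to 1.57), 0.16 for Prdm16 (-1.19 to 1.51) and 0.23 for Mbd2 (-0.54 to 0.997). The limma adjusted p was 0.999 for each. By limma 0 of 45037 probe sets were called for this difference (0%). An unadjusted p under 0.05 was found at 1744 of them, a share below 0.05. Groups of 2 or 3 pools limit what this comparison can show.

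The deposited table places the 3 probe sets on different chromosomes, in a build that it does not name. Ssbp2 aligned to chromosome 13, from 91600767 to 91704818 on the plus strand, and Prdm16 to chromosome 4, from 153693422 to 153709799 on the minus strand. Mbd2 aligned to chromosome 18, from 70788108 to 70788785 on the plus strand. The alignments span 104052, 16378 and 678 bases, and which exons or untranslated parts they cover was not analysed here.

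Ssbp2 had no other listed probe set with its alignment start within 5 Mb, although 8 others lay on its chromosome. Prdm16 had 7 of the 8 others on its chromosome within that distance, 4 higher and 3 lower in the mutant. Gnb1, a G protein beta subunit, started 1.23 Mb away and read 73.2 ± 19.8 in mutant and 6.29 ± 4.44 in wildtype pools (SD, n = 5 each). Ssu72, a phosphatase of the RNA polymerase II tail, started 1.40 Mb away and differed by 1.41 ± 0.16 (log2 ± SE). Both lay in the opposite direction to Prdm16.

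The remaining listed neighbours of Prdm16 lay in both directions. C1qtnf12 (listed as Fam132a) started 1.65 Mb away and differed by -1.24 ± 0.15, and B3galt6, a galactosyltransferase of proteoglycan synthesis, differed by -0.90 ± 0.12 and -1.52 ± 0.22 at its 2 probe sets, both 1.67 Mb away. On the other side, Nmnat1, an enzyme of NAD synthesis, differed by 1.12 ± 0.19 at -4.85 Mb, and the unnamed probe set 1448095_at by 1.54 ± 0.17 at -4.82 Mb. Mbd2 had 3 listed neighbours. Acaa2, a mitochondrial thiolase, lay 4.15 Mb away and differed by 1.62 ± 0.11, in the direction of Mbd2. Cep192, a centrosome protein (-1.06 ± 0.27 at -2.77 Mb), and the unnamed 1439336_at (-1.10 ± 0.21 at -0.99 Mb) lay in the other. Only listed probe sets could be placed, so nothing is known here of the unlisted genes between them.

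**Figure D5:**
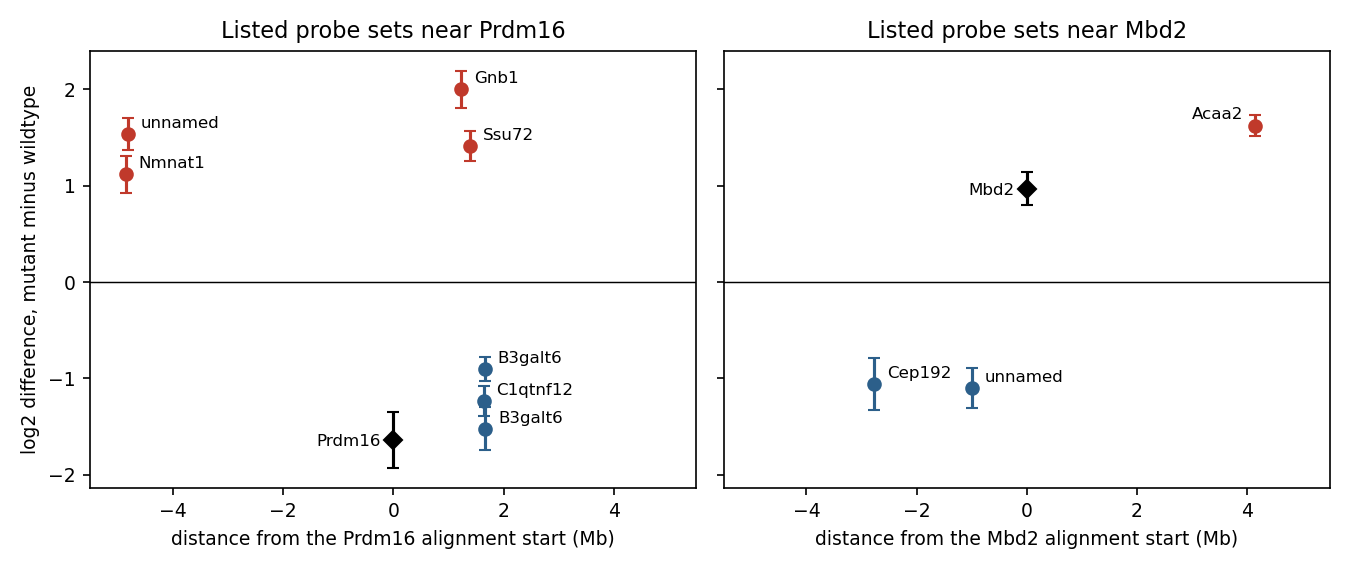
Log2 difference, mutant minus wildtype (vertical axis; bars are SE), of listed probe sets within 5 Mb of Prdm16 (left) and Mbd2 (right), by distance from the gene's alignment start in Mb; black diamonds are Prdm16 and Mbd2. Around Prdm16, 4 probe sets lie above 0 and 3 below, and around Mbd2, 1 lies above and 2 below.

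Among other singly named listed genes, likeness was measured by Pearson's r of deviations across the 10 pools, with genotype and sex removed. The genes most like Prdm16 were Cuedc1 (r = 0.89, rho = 0.87), Ermn, a myelin cytoskeletal protein (r = 0.73, rho = 0.79), and Acad9, a mitochondrial assembly factor of respiratory complex I (r = 0.71, rho = 0.72). Without mutant replicates 2 and 4, r was 0.92 for Cuedc1, 0.62 for Ermn and 0.43 for Acad9. All 3 lay lower in the mutant, as Prdm16 did, by -2.08 ± 0.23, -0.83 ± 0.18 and -1.04 ± 0.17. So did 61 of the 96 listed probe sets. Prdm16 deviated mostly in mutant pools, where its signals lay below the mark in every pool. The r above thus involve Prdm16 signals not shown to be above background.

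The genes most like Ssbp2 were C1qtnf12 (r = 0.78, rho = 0.79), Cnpy2 (r = 0.65, rho = 0.60) and Tiparp, a mono-ADP-ribosyltransferase (r = 0.60, rho = 0.44). Without mutant replicates 3 and 5, r was 0.62, 0.64 and 0.13 in the same order, so the likeness to Tiparp rested on those pools. At pseudocount 1 the r of C1qtnf12 with Ssbp2 was 0.42. Against the direction of Ssbp2, C1qtnf12 and Cnpy2 lay lower in the mutant (-1.24 ± 0.15 and -0.66 ± 0.20, log2 ± SE). Tiparp lay higher (1.14 ± 0.11). Those most like Mbd2 were Akr1b8, an aldo-keto reductase (r = 0.61, rho = 0.53), Rwdd3 (r = 0.60, rho = 0.53) and Fstl5 (r = 0.36, rho = 0.31). Without mutant replicates 1 and 2, r was 0.50, 0.43 and 0.20, and at pseudocount 1 that of Fstl5 with Mbd2 was 0.09. Rwdd3 lay lower in the mutant (-0.57 ± 0.08), against Mbd2, and Akr1b8 and Fstl5 higher (1.94 ± 0.10 and 1.27 ± 0.10). Mbd2 lay below the mark in every pool, so its r involve signals not shown to be above background. Candidates had to average at least 50 signal units in either genotype. Ermn and Rwdd3 did so in wildtype pools only, and Tiparp, Akr1b8 and Fstl5 in mutant pools only. Over the 59 or 60 candidates the median r was 0.20 for Prdm16, 0.14 for Ssbp2 and -0.18 for Mbd2. The named genes are the top of those ranges, so their r is no test.

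The partners of the 3 regulators could not be followed by name. The authors' deposited table was the source of all names, and in it 0 of 17 genes of the LIM homeodomain complex list, 0 of 18 of the PRDM list, 0 of 25 of the list of methyl-CpG readers, NuRD and DNA methylation, and 0 of 10 radial glia genes appear. The same held for the markers of MGE, of neighbouring forebrain regions and of blood, vessel and meningeal cells, so the labelled tissue was not checked against its markers here. Other probe sets of Ssbp2, Prdm16 and Mbd2 may be on the array without a name, and each value above is that of 1 probe set, not of the gene as a whole.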

How the data were processed

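For every array the deposited value table has a linear intensity of each probe set, measured with biotinylated cRNA on Affymetrix Mouse430_2, per the labels and the file headers. The methods of summary and scaling are not given in the sources used here. The authors' deposited table gives the fold change as a ratio, signed and absolute, and as log2, beside an intensity for each genotype. Per the file headers it keeps probe sets that had a corrected p no higher than 0.05 (unpaired test) and a fold no lower than 2.

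Intensities were analysed as log2(value + 16) in limma 3.58.1 under R 4.3.3. The model held genotype and sex, variances were moderated with eBayes, and p-values were adjusted by Benjamini-Hochberg over 45037 probe sets; an adjusted p under 0.05 was called, and 64 controls were left out. The fit was tested on simulated data, with changes set only at probe sets averaging above 50 signal units and equal spread in both genotypes. Mbd2 was dimmer than that, and Prdm16 varied more in mutant pools, so that test does not cover them. Effects within a sex used a separate mean for each combination of genotype and sex. Symbols were updated by Entrez number through RefSeq (GRCm38.p6), which served for names only. The genes named were the 3 members, Evf2, listed neighbours within 5 Mb, and for each member the 3 other singly named genes with the highest r among those averaging at least 50 signal units in either genotype. The genes and lists were chosen with earlier results of these data known. Alternatives varied the pseudocount, scaling, filter, variance model, weights, terms and threshold, and omitted single pools. The number of arrays limits the precision.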

Additional observations from a re-analysis of the deposited data

Results flagged for a closer look

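The named genes gave 44 groups of 5 pools, and in 3 of them a single pool lay apart from its group, its gap to the nearest pool being above Dixon's 95% critical share of the group's range. At that level about 1 group in 20 is picked out by chance. For Evf2 (Dlx6os1) this was mutant replicate 1, at 58.1 signal units, with the remaining mutant pools between 9.47 and 16.5. For Cep192, the neighbour of Mbd2, it was mutant replicate 4, at 35.0, with the remaining mutant pools between 0.958 and 9.81. For Acad9, one of the genes most like Prdm16, it was again mutant replicate 4, at 304, with the remaining mutant pools between 130.3 and 176. No pool of either genotype lay apart in this way for Ssbp2, Prdm16 or Mbd2.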

How the results depend on the processing

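Ssbp2, Prdm16 and Mbd2 kept their directions between genotypes under every alternative run, which groups without overlap nearly fixed in advance. Their sizes moved beyond the spread between pools with the pseudocount: at pseudocount 1 they were 5.07, -2.67 and 1.98, and at pseudocount 64 they were 1.73, -0.86 and 0.40. Without each pool in turn they ran from 2.95 to 3.25 for Ssbp2, -1.90 to -1.34 for Prdm16 and 0.83 to 1.17 for Mbd2. The call of Ssbp2 held in all 20 alternatives, that of Prdm16 ended in 10 of 20 and that of Mbd2 in 14 of 19. Apart from these, the stricter threshold of 0.01 kept the call of Ssbp2 and ended those of Prdm16 and Mbd2. Mbd2 was too dim for the filter on a mean signal of 50. The genes were chosen on this contrast, so these counts are a description and no test. At a mark of 25 signal units 2 mutant pools of Prdm16 and 4 mutant pools of Mbd2 lay above it, and at 100 the wildtype pools of Prdm16 numbered 0.

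Over all probe sets 241 were called, 136 higher and 105 lower; arrays centred on the median gave 95 higher and 148 lower. The count was 55 at pseudocount 1, 375 with array weights, 72 at an adjusted p under 0.01, and 72 to 259 without each pool in turn. It was 72 without mutant replicate 1, 141 without mutant replicate 2, 140 without mutant replicate 3, 133 without wildtype replicate 2, 96 without wildtype replicate 4 and 108 without wildtype replicate 5. The labels do not pair replicate numbers, and same-numbered pools had correlations of deviations between -0.13 and 0.07. With the replicate number as a block 39 were called; the block left the differences at 3.05, -1.59 and 0.93 and ended the Prdm16 and Mbd2 calls (adjusted p of 0.168 and 0.206). Of the mutant pools, 1 of 5 correlated best with its own number.

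Without each pool in turn the male minus female difference ran from -0.41 to -0.11 (Ssbp2), -0.0467 to 0.52 (Prdm16) and 0.08 to 0.42 (Mbd2). The difference of the genotype effect between sexes ran from 0.24 to 0.89 (Ssbp2), -0.58 to 0.90 (Prdm16) and -0.21 to 0.67 (Mbd2), and was -0.00222 for Prdm16 with mutant replicates 4 and 5 both left out, a setting chosen after seeing the data. No alternative brought a call. On plain log2 values, where genotype is not removed, r turned to -0.85 (C1qtnf12 with Ssbp2), -0.61 (Cnpy2 with Ssbp2) and -0.72 (Rwdd3 with Mbd2). Dim signals limit the sizes.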
